A study of Mus musculus with 24 samples.

Results

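Female mice labelled BMM-cKO were compared with female mice labelled WT in regions of brain tissue that lay on the same scanned slide, scan 3. The comparison holds 8 of the 24 regions of the series, 4 of BMM-cKO females and 4 of WT females, chosen by the slide, genotype and sex labels and not by any measured value. Each region was profiled on the GeoMx digital spatial profiler, which hybridises barcoded probes to the RNA of a tissue section, frees the barcodes of a chosen region with light and counts them by sequencing. The title of the series names the tyrosine kinase Lyn, a member of the Src family, in macrophages and in neuroinflammation after subarachnoid haemorrhage and in relation to sex.

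The BMM-cKO group carried a conditional knockout, and neither that abbreviation nor MG-cKO, the name of the other knockout on the slide, is spelled out in the labels. In the design text the controls appear as WT-SAH, so they carry the haemorrhage by name. The labels give no age, strain, Cre line or time after haemorrhage for either group. Both groups are female, the tissue is brain, the cell type entry reads macrophage, and the sections came from perfusion-fixed, frozen brains. They were stained for Tmem119, a marker of microglia, and Iba-1, the product of Aif1 in microglia and macrophages. The design text describes 4 regions of interest per slice and no label ties a region to an animal, so for every test given here the p-value is too small if several regions came from 1 animal. No label says in which brain area a region was placed.

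Among the 12 largest falls, 8 were on a list of genes of striatal projection neurons, which holds 23 of the 9981 tested targets. The list was drawn up with the fall of Penk and of related genes in these data already known, so this count is a description. Striatal projection neurons are inhibitory, form most of the striatum and receive dopamine and adenosine signals. The dopamine receptor Drd1 and the adenosine receptor Adora2a act through the G protein Golf, whose subunits include the products of Gnal and Gng7, on the adenylyl cyclase Adcy5, and the cyclic AMP so made activates protein kinase A, which phosphorylates DARPP-32, the product of Ppp1r1b. The neurons of the direct pathway make the peptide precursors Tac1 and Pdyn together with Drd1, and those of the indirect pathway make Penk together with Adora2a and the dopamine receptor Drd2.

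The 4 BMM-cKO regions held 1910094 to 7014700 recovered barcode tags and the 4 WT regions 2053159 to 5796412, with 89 to 310 and 95 to 268 tags at the median target. A level is the signal of a target over that of the negative probe of its region, a sequence with no target in the mouse, and a level near 1 is background. Targets at more than 2 times their region's negative probe made up 4.59% ± 1.14 in BMM-cKO and 3.20% ± 0.370 in WT regions (SD, n = 4 each, two-sided exact permutation p = 0.0857, where 0.0286 is the smallest p that 4 against 4 regions can give). The negative probe lay at 0.927 ± 0.0127 times the median target in BMM-cKO and 0.977 ± 0.0127 times in WT regions (exact permutation p = 0.0286), so a level over the negative probe and a level over the median target differ slightly in scale between the groups. WT region 1 was on library plate B and the other 7 regions on plate C.

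Of 9981 tested targets, 135 were higher (1.35% of those tested) and 99 lower (0.992%) in BMM-cKO than in WT females, by limma with Benjamini-Hochberg adjusted p under 0.05. An unadjusted p under 0.05 was found for 1738 targets. Most called differences were small: 2 of the higher and 8 of the lower targets changed by more than 2-fold. The centred values of the groups did not overlap for 807 targets (8.09%), called or not. These fits centre each region on its median target and share the spread of all 24 regions. With each region divided by its negative probe instead, 224 targets were higher and 26 lower, so that higher targets made up 89.6% of the calls in place of 57.7%. With only the 8 regions in the fit, 4 targets were higher and 7 lower: the falls were Penk, Gng7, Phactr1, Crym, Gnal, Dgkb and Dlg2, and the rises Drap1, Hdgf, H13 and LOC118568783 (Dlg2, Drap1, Hdgf and H13 are named after their values were seen). Without WT region 2 there were 31 higher and 29 lower targets, and without WT region 4 there were 36 and 32.

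As a gauge of probe background, 1194 probes for olfactory, vomeronasal and taste receptors and keratin-associated proteins, taken here as not expressed in the brain, were read in a fit of all 19962 targets. Of these probes 1 was called (0.0838%), against 150 of all targets (0.751%). Their middle 95% had log2 changes between -0.24 and 0.20. All 12 of the largest falls and 12 of the largest rises described next lay beyond that range. They were picked as the largest called changes, so this follows from the choice and is no separate test.

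Penk, the precursor of the enkephalin opioid peptides, was the target with the largest fall. Its levels were 2.02, 3.24, 2.44 and 2.31 times the negative probe in BMM-cKO regions, against 4.80, 8.25, 6.66 and 10.8 times in WT regions. Every BMM-cKO region lay below every WT region, and the mean difference was 3.11-fold (log2 -1.64 ± 0.16 SE, limma adjusted p = 6.41e-07). In bulk regions such as these, fewer cells of a type and less RNA per cell cannot be told apart. As no label gives the brain area, a different placement of the regions cannot be told apart from them either. Tac1, the precursor of substance P, had 1.09, 1.44, 1.14 and 1.07 times in BMM-cKO and 1.59, 1.83, 2.24 and 2.43 times in WT regions (log2 -0.83 ± 0.11, adjusted p = 5.64e-05). Pdyn, the precursor of dynorphins, had 1.5, 1.59, 1.66 and 1.38 times in BMM-cKO and 1.73, 2.43, 2.27 and 2.62 times in WT regions (log2 -0.62 ± 0.11, adjusted p = 0.00113). Both peptide precursors thus fell without overlap of the groups, to levels nearer background than that of Penk.

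Receptors that feed this pathway were also lower. The dopamine receptor Drd1 had 1.16, 1.13, 1.09 and 1.45 times the negative probe in BMM-cKO regions, and 1.32, 1.69, 1.71 and 1.82 times in WT regions (log2 -0.51 ± 0.10, adjusted p = 0.00311), and BMM-cKO region 4 overlapped with WT region 1. For the adenosine receptor Adora2a the levels were 1.90, 1.69, 1.94 and 1.69 times in BMM-cKO, against 1.95, 2.60, 2.07 and 2.68 times in WT regions (log2 -0.43 ± 0.09, adjusted p = 0.0155). Drd2 was near background everywhere, at 0.826, 1.01, 0.899 and 0.782 times in BMM-cKO and 1.12, 1.26, 1.17 and 1.35 times in WT regions. The filter on low targets left Drd2 out, and in the fit without that filter its log2 change was -0.55 ± 0.09 (adjusted p = 0.000578).

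Both Golf subunits fell to background. Gnal, the alpha subunit, lay at 0.946, 0.896, 0.807 and 1.05 times in BMM-cKO regions and at 1.43, 1.81, 1.64 and 2.01 times in WT regions (log2 -0.96 ± 0.10, adjusted p = 7.11e-07). Gng7, a gamma subunit, lay at 0.826, 0.948, 1.07 and 0.83 times in BMM-cKO regions and at 1.49, 3.51, 2.18 and 2.89 times in WT regions, a 2.75-fold difference (log2 -1.46 ± 0.16, adjusted p = 1.21e-06). At levels this close to the negative probe, the size of a fold change is uncertain. The cyclase Adcy5 had 1.41, 1.85, 1.34 and 1.91 times in BMM-cKO and 2.12, 3.66, 3.00 and 3.90 times in WT regions, a 2.01-fold difference (log2 -1.01 ± 0.14, adjusted p = 9.16e-05). Rgs9, which speeds the turn-off of G proteins in striatal neurons, was also lower (log2 -0.54 ± 0.11, adjusted p = 0.0106). Groups did not overlap for any of these 4 genes.

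Downstream of protein kinase A the picture was mixed. Arpp21, a phosphoprotein of this kinase that binds RNA, had 1.39, 1.57, 1.12 and 2.01 times in BMM-cKO and 1.93, 4.97, 3.14 and 5.86 times in WT regions (log2 -1.36 ± 0.21, adjusted p = 0.000325), with no overlap after centring on the median target, although over the negative probe BMM-cKO region 4 was slightly above WT region 1. Ppp1r1b, in contrast, did not pass the test (log2 -1.41 ± 0.41, adjusted p = 0.0664). Its levels were 1.39, 0.888, 9.24 and 0.83 times in BMM-cKO regions, against 2.20, 5.33, 4.44 and 7.39 times in WT regions. BMM-cKO region 3 was higher than every WT region and the other 3 BMM-cKO regions were lower than all of them. Without region 3 the log2 change was -2.19, but this leaves out the only region against the fall and is no test of it. In the limma fit of only the BMM-cKO and WT female regions the adjusted p was 0.378. Ppp1r1b passed with quantile normalization (adjusted p = 0.0113), with the negative probe subtracted (0.0340) and without WT region 1 (0.0248). BMM-cKO region 3 also carried choroid plexus transcripts, as described further on, and their bearing on its Ppp1r1b level was not tested. The phosphatase Ptpn5 was not called (log2 -0.34, adjusted p = 0.115).

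Of the 30 genes on the striatal projection neuron list, 23 passed the filter on low targets. Of these, 16 fell, none rose and 7 were not called, beside 0.992% lower and 1.35% higher among all tested targets. All 23 log2 changes were below 0, with a median of -0.51 against -0.00 over all tested targets. The groups did not overlap for 13 of the 23, beside the 8.09% of all tested targets. The list was drawn up with the fall of Penk and of related genes in these data already known, so its counts are a description. Drd2, Pde10a, Pde1b, Gpr6, Scn4b and Ido1 were among the 7 genes left out by the filter. In the fit without the filter, 5 of the 7 were lower and Gpr6 and Ido1 were not called. The sodium channel subunit Scn4b lay at 0.766, 0.733, 0.698 and 0.823 times in BMM-cKO and 0.965, 1.77, 1.26 and 2.30 times in WT regions, without overlap (log2 -1.05 ± 0.16, adjusted p = 0.0002). The phosphodiesterase Pde1b was lower by a smaller amount (log2 -0.84 ± 0.14, adjusted p = 0.00087).

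The list's calls rest on the shared spread. Left-out regions gave 10 to 15 lower genes, the fit of the 3 female groups gave 9, and the fit of the 8 regions alone gave 3. The list's median stayed at -0.44 with the negative probe as scale and at -0.51 with quantile normalization. On the scale as deposited, where the median tested target lay 0.64 higher in BMM-cKO females, it was 0.13, and 15 of the 23 genes were above 0. That scale was set separately for each group by the authors, and relative to its median target the striatal genes remain lower.

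**Figure D1:**
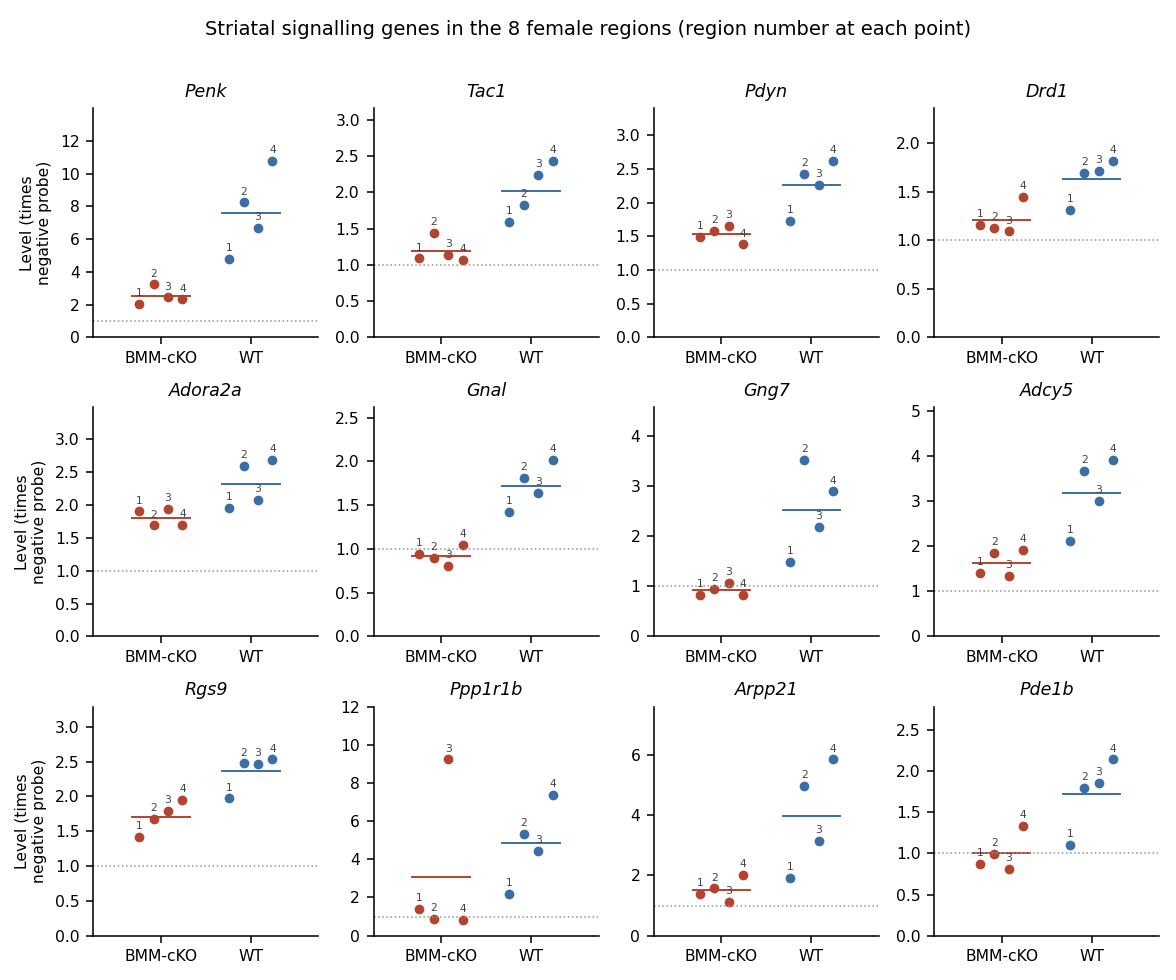
Levels of 12 genes of striatal signalling in the 4 BMM-cKO (left, red) and 4 WT (right, blue) female regions, over the negative probe (y axis, linear from 0). Points are regions with their number, bars are group means and the dotted line marks the negative probe. Penk lies at 2.02 to 3.24 times in BMM-cKO and 4.80 to 10.8 times in WT regions, and Ppp1r1b is high in BMM-cKO region 3 alone among the BMM-cKO regions.

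The sequences in front of genes that fell together are shown for a peptide precursor and for the cyclase, because cyclic AMP made by Adcy5 acts on genes through a DNA element, the cyclic AMP response element. Both are the 250 bases before the start of the RefSeq transcript, on the plus strand of GRCm38.p6, at chr6:7554811-7555060 for Tac1 and chr16:35154614-35154863 for Adcy5. Capitals mark the half-site of the element, searched as TGACG and its reverse complement CGTCA on both strands.
Tac1: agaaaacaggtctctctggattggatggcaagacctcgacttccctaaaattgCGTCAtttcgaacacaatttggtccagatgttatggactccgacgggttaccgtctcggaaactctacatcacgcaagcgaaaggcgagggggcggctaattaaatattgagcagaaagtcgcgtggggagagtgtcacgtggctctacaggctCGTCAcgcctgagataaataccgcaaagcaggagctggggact
Adcy5: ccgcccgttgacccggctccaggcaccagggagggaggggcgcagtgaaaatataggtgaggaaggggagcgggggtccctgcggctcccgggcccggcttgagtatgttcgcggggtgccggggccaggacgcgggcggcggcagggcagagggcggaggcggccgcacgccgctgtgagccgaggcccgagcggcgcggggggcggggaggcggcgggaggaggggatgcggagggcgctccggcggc
The half-site stood 2 times in the Tac1 window, at -197 and -43 from the transcript start, and not in the Adcy5 window. Over all 32851 promoter entries of the same length, 17.8% held at least 1 half-site and 1.55% the full 8-base element TGACGTCA. Of the 16 called striatal genes, 6 had a single entry, and of these 1, Tac1, held a half-site and 0 the full element. A match in these letters is a description and not a binding site.

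The rest of the 12 largest falls were Phactr1, Crym, Cpne5 and Dgkb, which are on none of the lists, and Sez6 of the striatal list. Phactr1, a regulator of protein phosphatase 1 and actin, had 1.05, 1.55, 1.12 and 1.16 times the negative probe in BMM-cKO regions, and 1.96, 3.16, 2.32 and 3.09 times in WT regions (log2 -1.17 ± 0.13, adjusted p = 1.67e-06). Crym, which binds thyroid hormone in the cytosol, had 1.17, 1.13, 1.36 and 1.18 times in BMM-cKO and 1.66, 2.98, 2.66 and 2.80 times in WT regions (log2 -1.10 ± 0.12, adjusted p = 7.11e-07). In both, the groups were separate and the BMM-cKO regions were close together. Dgkb, a diacylglycerol kinase, was lower by a smaller and very even amount, at 1.14 to 1.22 times in BMM-cKO and 1.5 to 1.87 times in WT regions (log2 -0.57 ± 0.07, adjusted p = 2.85e-05). The copine Cpne5 (log2 -0.68 ± 0.10) and the neuronal membrane protein Sez6 (-0.62 ± 0.10) were 1.6-fold and 1.54-fold lower. WT region 1 had the lowest level of the 4 WT regions for all 12 of the largest falls, and it is the region on plate B. It also had the highest level of the 4 WT regions for 8 of the 12 largest rises. Leaving it out gave 137 higher and 97 lower targets, of which 164 were among the 234 targets called with it.

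Genes of GABA synthesis and transport were lower in 3 BMM-cKO regions and not in the other. Gad1, which makes GABA, had 1.02, 3.49, 1.13 and 0.968 times in BMM-cKO and 4.13, 2.14, 2.63 and 2.54 times in WT regions. The second GABA-making enzyme, Gad2, had 1.03, 3.15, 0.878 and 1.01 times in BMM-cKO and 3.03, 2.06, 3.07 and 2.35 times in WT regions (log2 -1.06 ± 0.26, adjusted p = 0.0294). Slc32a1, the vesicular GABA transporter, followed the same order, with 0.898, 2.72, 1.01 and 0.898 times in BMM-cKO and 2.95, 1.79, 2.41 and 2.00 times in WT regions (log2 -0.95 ± 0.24, adjusted p = 0.0362). BMM-cKO region 2 was as high as the WT regions for all 3 genes, and the interneuron peptide Sst was 2.62 times there and 0.652 to 0.678 times in the other BMM-cKO regions. Gad2 and Slc32a1 were 2 of 9 tested interneuron genes that fell, beside 0.992% of all tested targets, 0 rose, and the list's median was -0.18. Both calls were lost when any of the 4 WT regions, or BMM-cKO region 1 or 4, was left out (adjusted p = 0.0508 to 0.0953).

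The largest rise was that of Gnas, the alpha subunit of Gs, the G protein by which most cells switch on adenylyl cyclase. It had 8.79, 8.73, 13.8 and 19.2 times the negative probe in BMM-cKO regions, and 6.48, 2.53, 4.37 and 2.60 times in WT regions, a 3.07-fold rise (log2 1.62 ± 0.30, adjusted p = 0.00276). Nrn1, a membrane-anchored protein that promotes neurite growth, had 1.86, 1.32, 1.23 and 3.35 times in BMM-cKO and was below the negative probe in WT regions, at 0.756, 0.856, 0.814 and 0.805 times (log2 1.06 ± 0.17, adjusted p = 0.000609). For both genes the groups were separate, and BMM-cKO region 4 stood highest. Among WT regions Gnas was highest in regions 1 and 3, which were the lower WT regions for Penk.

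Clu, the chaperone clusterin of astrocytes and choroid plexus, had 4.85, 3.71, 11.7 and 3.46 times in BMM-cKO and 3.03, 2.41, 2.92 and 2.10 times in WT regions (log2 0.93 ± 0.22, adjusted p = 0.0218). Timp2, an inhibitor of metalloproteinases, had 2.24, 2.40, 2.34 and 3.70 times in BMM-cKO and 1.81, 1.23, 1.43 and 1.23 times in WT regions (log2 0.82 ± 0.13, adjusted p = 0.000557). Igfbp5, which binds insulin-like growth factors, had 2.00, 1.64, 1.89 and 1.34 times in BMM-cKO and 0.921, 1.06, 0.853 and 0.995 times in WT regions (log2 0.75 ± 0.10, adjusted p = 3.58e-05). Clusterin was led by BMM-cKO region 3, whereas Timp2 was highest in region 4 and Igfbp5 in region 1.

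Nrbp2, a pseudokinase, had 2.51, 1.84, 1.79 and 2.08 times in BMM-cKO and 1.27, 0.849, 1.25 and 0.950 times in WT regions (log2 0.85 ± 0.12, adjusted p = 9.16e-05). Pgrmc1, a haem-binding membrane protein, had 2.91, 4.15, 4.31 and 3.99 times in BMM-cKO and 2.31, 1.99, 2.32 and 2.18 times in WT regions (log2 0.71 ± 0.15, adjusted p = 0.00932). The transcription factor Zic1 was at 2.15, 1.34, 2.07 and 3.40 times in BMM-cKO and at 1.20 to 1.29 times in WT regions (log2 0.70 ± 0.15, adjusted p = 0.0108). Rbm3, an RNA-binding protein induced by cold, rose by 0.69 ± 0.11 and the alpha-tubulin Tuba1b by 0.74 ± 0.17. LOC118568632 and LOC118568783, which the files name by identifier only, rose by 0.71 ± 0.15 and 0.68 ± 0.11. The calls of Clu, Tuba1b and LOC118568632 were lost without WT region 2 (adjusted p = 0.0722, 0.105 and 0.0533), and those of Clu and Tuba1b also without WT region 4 (0.0965 and 0.106). Tuba1b was lost without BMM-cKO region 4 as well (0.0577). Only LOC118568783 among these 12 rises passed in the fit of the 8 regions alone (adjusted p = 0.0258), against 6 of the 12 falls.

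**Figure D2:**
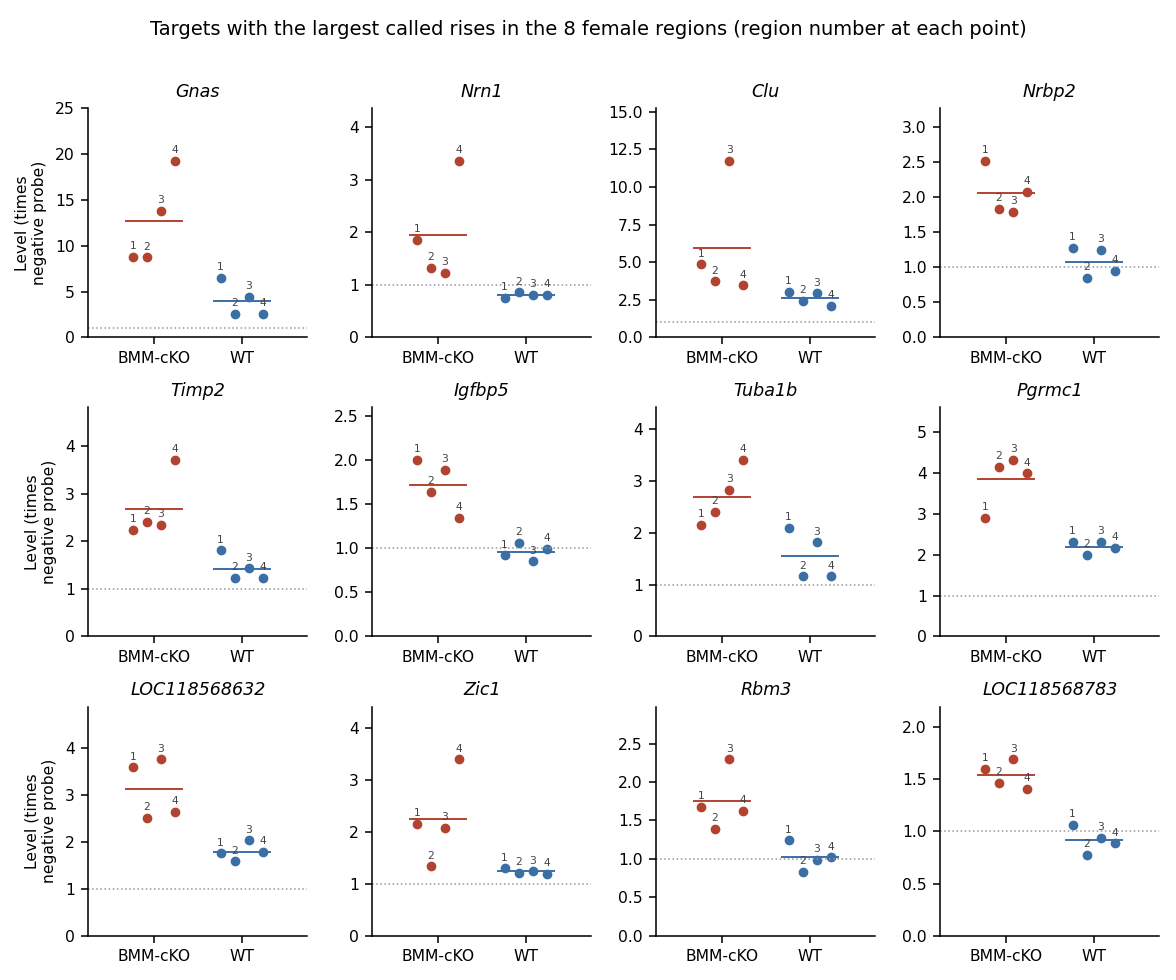
Levels of the 12 targets with the largest called rises in the 4 BMM-cKO (left, red) and 4 WT (right, blue) female regions, over the negative probe (y axis, linear from 0). Points are regions with their number, bars are group means and the dotted line marks the negative probe. Gnas lies at 8.73 to 19.2 times in BMM-cKO and 2.53 to 6.48 times in WT regions, and Clu is led by BMM-cKO region 3.

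Lyn itself was near background and did not differ beyond the spread between regions. Its levels were 1.17, 1.22, 1.08 and 0.979 times the negative probe in BMM-cKO regions, and 1.07, 1.11, 1.16 and 1.11 times in WT regions, from 98, 141, 306 and 169 tags in BMM-cKO and 98, 172, 148 and 292 tags in WT regions (log2 -0.08 ± 0.09, adjusted p = 0.681). Whether the probe for Lyn reads the deleted stretch of the gene is not given, so its level is no check of the genotype labels. At a level this close to the negative probe, a loss of Lyn in a minority of cells was not detectable. Of 14 tested genes of Lyn and Src-family signalling, 0 passed the test, with log2 changes from -0.20 to 0.13. Among them were the brain-expressed kinases Fyn (0.13, adjusted p = 0.364) and Src (0.13, 0.375).

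The genes of both stains differed in how well they could be read. Aif1 had 2.35, 1.94, 2.35 and 2.05 times the negative probe in BMM-cKO regions, and 2.47, 2.40, 2.30 and 2.56 times in WT regions (log2 -0.24 ± 0.10, adjusted p = 0.201). Tmem119 was below the negative probe in all 8 regions, at 0.786 to 0.888 times in BMM-cKO and 0.649 to 0.855 times in WT regions, so the microglia marker used for staining was not seen in the RNA values. The groups overlapped for Aif1.

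Of the homeostatic microglia genes, C1qb and Cx3cr1 fell slightly. C1qb, a chain of the complement protein C1q made by microglia, had 1.56, 1.43, 1.55 and 1.41 times in BMM-cKO and 1.94, 1.72, 2.02 and 1.67 times in WT regions (log2 -0.37 ± 0.09, adjusted p = 0.0218). Cx3cr1, the fractalkine receptor, had 0.934, 1.12, 1.17 and 1.18 times in BMM-cKO and 1.34, 1.25, 1.32 and 1.28 times in WT regions (log2 -0.31 ± 0.08, adjusted p = 0.0402). These were 2 of 19 tested members that fell, beside 0.992% of all tested targets, and 0 rose. The list's median was -0.22 against -0.00 over all tested targets, and 15 of the 19 changes were below 0. Of members that were not called, Csf1r (-0.26, adjusted p = 0.106), C1qa (-0.29, 0.176), Ctss (-0.27, 0.168) and P2ry12 (-0.20, 0.199) had negative changes, and Sparc (0.44, 0.452), Lgmn (0.23, 0.233), P2ry13 (0.02, 0.922) and Entpd1 (0.01, 0.953) had positive ones, that of Sparc exceeding the size of any negative change on the list. With the negative probe as scale the median was -0.15 and neither gene passed (adjusted p = 0.0839 for C1qb and 0.107 for Cx3cr1). Without WT region 3 both calls were lost (0.0667 for C1qb and 0.075 for Cx3cr1), that of C1qb also without BMM-cKO region 4 (0.0549), and that of Cx3cr1 without BMM-cKO region 1 or any WT region (0.0644 to 0.102). The summed level of the 26 measured members was 36.2 to 38.5 in BMM-cKO and 36.2 to 42.9 in WT regions, which overlap.

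On the list of disease-associated microglia 2 of 12 tested members rose, beside 1.35% of all tested targets, and 0 fell: Timp2, given above, and the lysosomal protease Ctsl, at 2.00, 1.81, 3.5 and 2.18 times in BMM-cKO and 1.52 to 1.67 times in WT regions (log2 0.44 ± 0.12, adjusted p = 0.0433). Without BMM-cKO region 3, Ctsl had a log2 change of 0.25 (adjusted p = 0.11). The lipid carrier Apoe, abundant in astrocytes, was not called (0.62 ± 0.26, adjusted p = 0.208), nor was the receptor Trem2 (-0.15, 0.352). Lpl, Itgax, Spp1, Clec7a, Gpnmb and Lgals3 were among the 8 members left out as low.

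Inflammatory genes were largely at background, and none of those tested passed. There were 0 calls among 5 tested genes of Toll-like receptor and NF-kB signalling, 6 cytokines and chemokines, 9 interferon and antigen presentation genes, 14 genes of phagocytosis and 11 of cell death. Tnf lay at 0.819 to 0.934 times the negative probe in BMM-cKO regions, and 0.687 to 0.926 times in WT regions, and Tlr4 at 0.898 to 1.19 and 0.907 to 1.01 times. In a fit without the filter, where 0 of the 17 low members of the Toll-like receptor list and 0 of the 14 low cytokines passed, the count likewise stayed at 0. With most of these probes at the level of the negative probe, a difference was not detectable, and its absence is not shown. In the complement list C1qb was the 1 of 6 tested members called lower, beside 0.992% of all tested targets. The list's median log2 change was -0.14, and 5 of the 6 changes were below 0.

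Markers of other immune cells were not called. Of 7 tested monocyte and infiltrating myeloid genes, 6 of border-associated macrophages, 5 of neutrophils and 3 of lymphocytes, 0 were called. The summed level of the 17 measured monocyte genes reached at most 18.6 in BMM-cKO and 17.4 in WT regions, or about 1 per gene. Ccr2, the chemokine receptor of inflammatory monocytes, was at 0.800 to 0.956 times in BMM-cKO and 0.734 to 0.986 times in WT regions. Mrc1 and Cd163, markers of macrophages at the borders of the brain, were at 0.694 to 1.09 times in BMM-cKO and 0.751 to 1.19 times in WT regions. The labelled cell type is macrophage, and Ccr2, Mrc1 and Cd163 were near the negative probe in both groups, while the macrophage marker Adgre1 was at 1.62 to 1.92 times in BMM-cKO and 1.45 to 1.86 times in WT regions. Single members of the other lists were also above the negative probe in all 8 regions. The neutrophil gene S100a9 was at 1.48 to 1.59 times in BMM-cKO and 1.44 to 1.60 times in WT regions. The T cell gene Cd3e was at 1.41 to 1.65 times in BMM-cKO and 1.36 to 1.60 times in WT regions. Other members of these lists were near the negative probe. S100a8 was at 0.726 to 0.922 times in BMM-cKO and 0.688 to 0.790 times in WT regions, and Cd3d at 0.892 to 1.04 and 0.931 to 1.13 times. The median level over the neutrophil list was 0.926 in BMM-cKO and 0.909 in WT regions, and over the lymphocyte list 0.971 and 0.955.

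Genes of neurons of other brain areas were mostly not called. Of 19 tested genes of cortical and hippocampal excitatory neurons, 1 rose and 0 fell: Nrgn, a calmodulin-binding postsynaptic protein, at 4.06, 6.50, 3.88 and 3.02 times in BMM-cKO and 2.05, 2.32, 1.65 and 3.08 times in WT regions (log2 0.84 ± 0.23, adjusted p = 0.0466). Its groups overlapped through BMM-cKO region 4 and WT region 4. Nrgn did not pass under quantile normalization (adjusted p = 0.071) or in the fit of all targets (0.065), nor without BMM-cKO region 1 or 2 or WT region 1, 2 or 3 (0.0649 to 0.14). The summed level of the 26 measured members was 39.7 to 51.3 in BMM-cKO and 31.8 to 36.5 in WT regions, which do not overlap. Taken singly, the groups overlapped for each of the 19 tested members. The list's median log2 change was 0.11, and 0.03 with quantile normalization. Summed levels are over the negative probe, a scale on which 7084 of 9981 tested targets were above 0. The summed level of the 30 striatal genes was 38.4 to 45.6 in BMM-cKO and 50.1 to 80.4 in WT regions. Of 18 tested genes of thalamus, hypothalamus and septum, 2 rose, beside 1.35% of all tested targets: Zic1 and the glutamate transporter Slc17a6. Slc17a6 was at 1.32, 1.20, 0.942 and 2.90 times in BMM-cKO and 0.794 to 0.907 times in WT regions (log2 0.70 ± 0.18, adjusted p = 0.0392), and without BMM-cKO region 4 its change was 0.37 (adjusted p = 0.098). Brain area and genotype cannot be told apart here, as the labels give no position for the regions.

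General neuronal genes did not shift as a list. Of 30 tested neuron and synapse genes 1 fell, the synaptic vesicle regulator Cplx2, and 0 rose, beside 0.992% and 1.35% of all tested targets. Cplx2 had 3.35, 4.23, 5.11 and 2.46 times in BMM-cKO and 4.66, 6.14, 5.23 and 5.44 times in WT regions (log2 -0.62 ± 0.16, adjusted p = 0.0402), and without BMM-cKO region 4 its change was -0.42 (adjusted p = 0.14). The call of Cplx2 was also lost with the negative probe as scale (0.0722), without the filter (0.0602), and without BMM-cKO region 1 or WT region 2, 3 or 4 (0.0654 to 0.139). Snap25, a protein of vesicle fusion, varied from 1.31 times in BMM-cKO region 3 to 7.14 times in region 1, and from 2.91 to 6.45 times among WT regions (log2 -0.19, adjusted p = 0.821). Of 6 tested activity-induced genes 0 passed.

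Among astrocyte genes 2 of 19 rose and 0 fell, beside 1.35% and 0.992% of all tested targets. Beside Clu these were Aldh1l1, an enzyme of folate metabolism that marks astrocytes, at 1.94, 1.5, 1.57 and 1.44 times in BMM-cKO and 1.27, 0.965, 1.23 and 1.02 times in WT regions (log2 0.45 ± 0.10, adjusted p = 0.0112). The glutamate transporters Slc1a2 (-0.23, adjusted p = 0.55) and Slc1a3 (-0.19, 0.592) were not called, nor was the reactive astrocyte marker Gfap (0.76, 0.107). Of 18 tested oligodendrocyte genes and 13 of endothelium and pericytes, 0 passed. Of 10 tested fibroblast genes, Col6a1, a chain of type VI collagen, fell (log2 -0.52 ± 0.09, adjusted p = 0.00169), at 0.970 to 1.29 times in BMM-cKO and 1.28 to 1.81 times in WT regions.

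Lists of abundant housekeeping genes leaned upward with few calls. Of 24 tested genes of oxidative phosphorylation, 1 rose, the succinate dehydrogenase subunit Sdha (log2 0.44 ± 0.11, adjusted p = 0.0362), although all 24 changes were above 0 with a median of 0.20. In glycolysis 2 of 18 rose, beside 1.35% of all tested targets: Gpi1 (0.64 ± 0.14, adjusted p = 0.0108) and the hexokinase Hk1 (0.41 ± 0.11, 0.0473). Rplp0 was the 1 of 23 tested ribosomal protein genes that rose (0.33 ± 0.09, adjusted p = 0.0433), with 20 changes above 0. Canx, a chaperone of the endoplasmic reticulum, was the 1 of 14 chaperones (0.58 ± 0.14, adjusted p = 0.0294), with all 14 above 0 and a median of 0.30. With quantile normalization the medians were lower: 0.15 for oxidative phosphorylation (21 of 24 changes above 0), 0.10 for ribosomal proteins (16 of 23) and 0.22 for chaperones (13 of 14). The glycolysis median became 0.079 (13 of 18 above 0), in place of 0.205 (15 of 18). Their summed levels were highest in BMM-cKO region 3, at 85.8 for oxidative phosphorylation, with 51.6, 51.3 and 59.6 in BMM-cKO regions 1, 2 and 4 and 43.9 to 55.8 in WT regions, and they moved beside the share of detected targets, which is given above, and its part in their shift was not tested. Without BMM-cKO region 3 the calls of Sdha (adjusted p = 0.0704), Hk1 (0.0815) and Rplp0 (0.12) were lost. Without WT region 2 none of Sdha, Gpi1, Hk1, Rplp0, Canx, Aldh1l1, Nrgn, Slc17a6, Cplx2, Ctsl and Clu passed (adjusted p = 0.0668 to 0.159), and without WT region 4 all of these except Nrgn were lost as well (0.0569 to 0.18).

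Gpx4, which protects membrane lipids from peroxidation, was the 1 of 7 tested haem and iron genes called higher, beside 1.35% of all tested targets. It had 1.94, 1.84, 4.5 and 1.87 times in BMM-cKO and 1.61, 1.51, 1.5 and 1.24 times in WT regions (log2 0.60 ± 0.16, adjusted p = 0.0433), and without BMM-cKO region 3 its change was 0.30 (adjusted p = 0.0693), while without WT region 2, 3 or 4 the call was lost at an adjusted p of 0.0732 to 0.151. Hmox1, the inducible enzyme of haem breakdown, was at 0.898 to 1.01 times in BMM-cKO and 0.759 to 0.988 times in WT regions and was left out as low. The haemoglobin gene Hba-a1 was 2.36 times in BMM-cKO region 1, 0.638 to 0.748 times in the other BMM-cKO regions and 0.618 to 0.714 times in WT regions (adjusted p = 0.686).

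**Figure D3:**
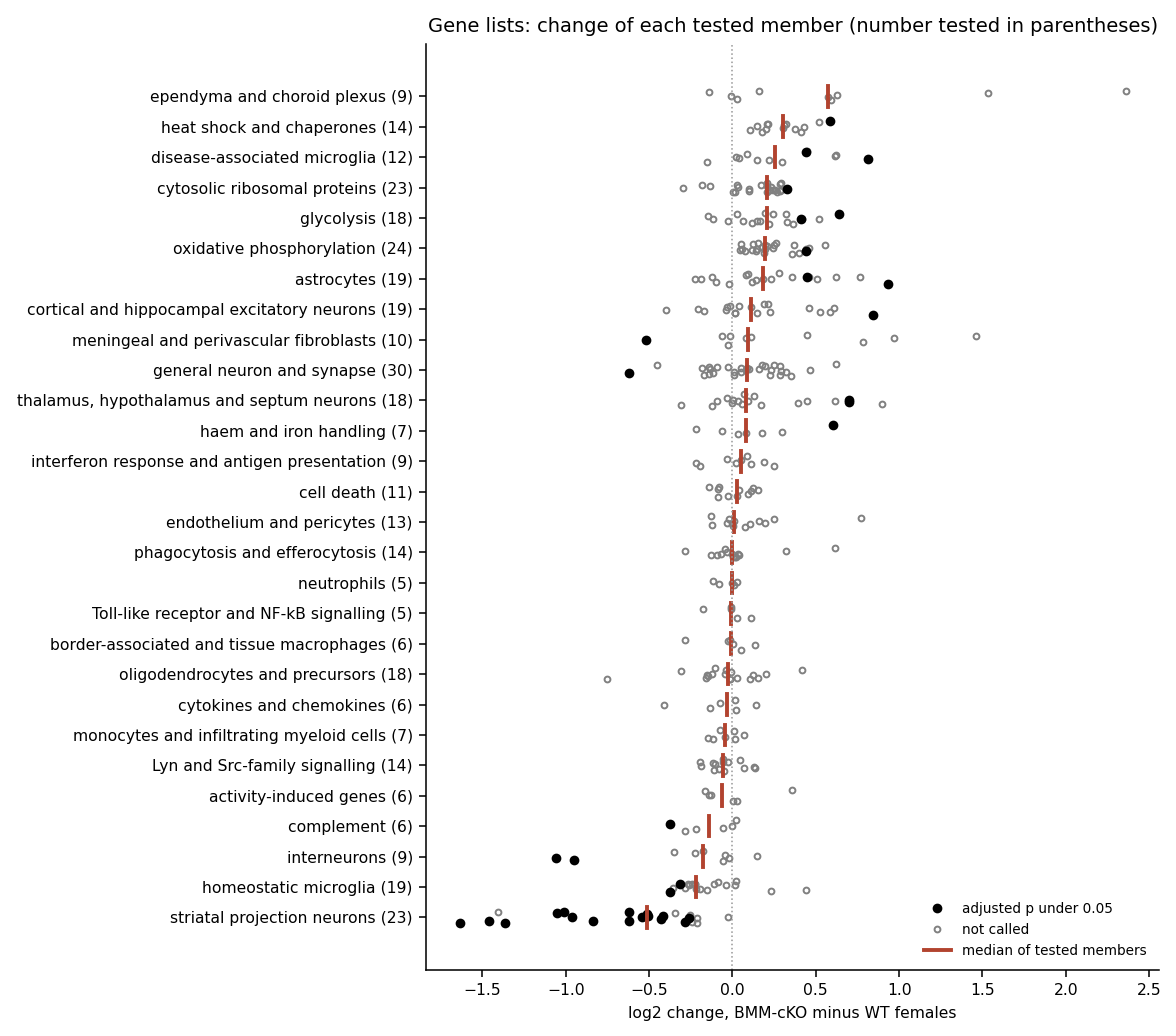
Log2 change (x axis, BMM-cKO minus WT females) of each tested member of the lists with 5 or more tested members. Filled points passed adjusted p under 0.05, open points did not, and red bars are medians of the tested members. The striatal list stands lowest with a median of -0.51, and the list of ependyma and choroid plexus stands highest through a single region.

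Single regions stood apart in both groups. The median SD of log2 level was 0.20 over the 859 targets at 2 times the negative probe or more in BMM-cKO regions, and 0.12 over the 610 such targets in WT regions. These sets differ and each was picked by its own group's mean, so the SDs are not compared. Region 3 of the BMM-cKO group carried transcripts of choroid plexus, the tissue that makes cerebrospinal fluid. Ttr, the thyroid hormone carrier transthyretin, was 361 times the negative probe there and made up 1.45% of the region's signal. In the other 3 BMM-cKO regions it was 1.06 to 1.35 times, and in WT regions 0.804 to 0.954 times. Enpp2, which makes lysophosphatidic acid, was 104 times in region 3 and 1.21 to 1.98 times in the other BMM-cKO regions, against 1.21 to 1.71 times in WT regions. Clic6 (8.84 times), Kl (8.26), Kcnj13 (5.29) and the folate receptor Folr1 (4.63) were high in the same region and at 0.742 to 1.27 times in the other BMM-cKO regions. None of the 9 tested members of that list was called (smallest adjusted p = 0.194). The whole comparison without region 3 gave 233 higher and 129 lower targets, of which 179 were also called with it.

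Single genes marked the other BMM-cKO regions. Region 1 was high in Mbp, a protein of myelin, at 4.49 times, against 1.23 to 1.55 times in the other BMM-cKO regions and 1.37 to 2.02 times in WT regions. Region 2 was high in Gad1, Gad2, Slc32a1 and Sst, as described. Region 4 was high in Npcd, at 15.9 times against 0.821 to 1.72 times in the other BMM-cKO regions and 0.714 to 0.910 times in WT regions, and in Slc17a6. The prostaglandin D synthase Ptgds, abundant in meninges and oligodendrocytes, was 14.0 times in region 3 and 7.20 times in region 1, against 1.22 and 1.25 times in regions 4 and 2. Among WT regions the most variable were Slc6a11, a GABA transporter of astrocytes, at 4.47, 1.46, 2.61 and 1.08 times, and Nap1l5 at 5.69, 1.70, 3.46 and 1.67 times. Both were highest in WT regions 1 and 3, as was Gnas, while Arpp21 and Ppp1r1b were highest in WT regions 2 and 4. These values describe the regions and carry no test.

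**Figure D4:**
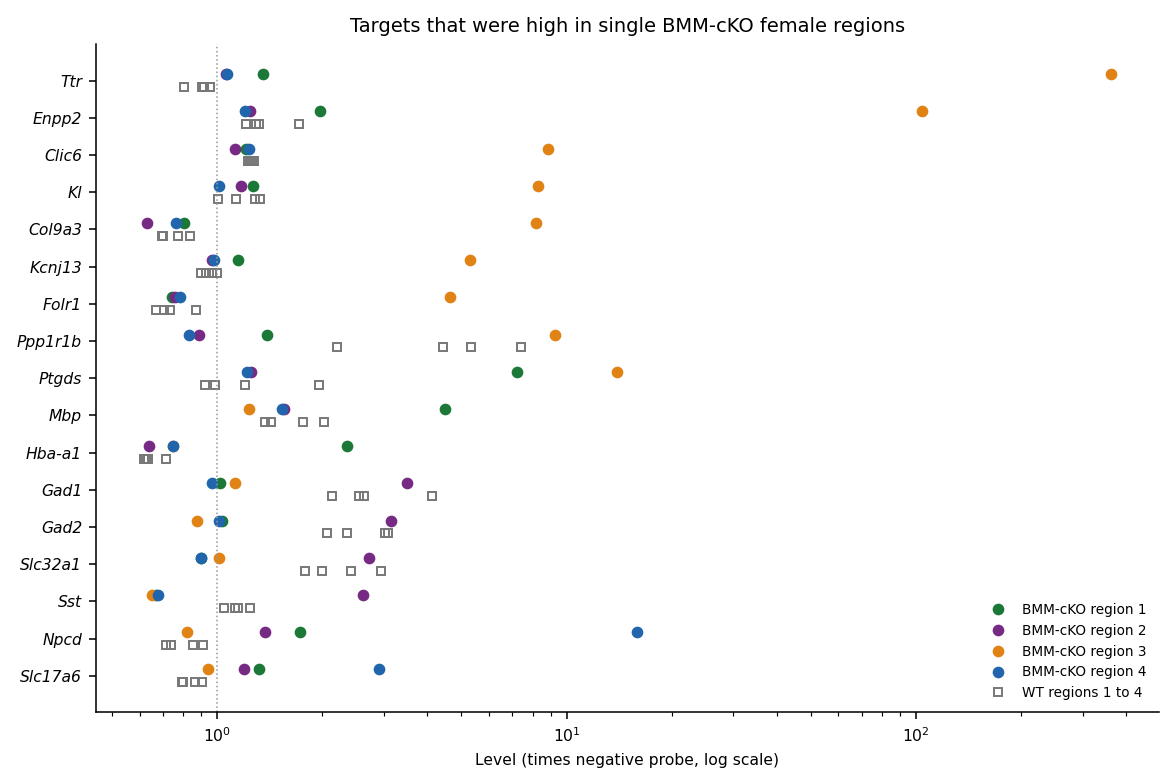
Levels of targets that were high in single BMM-cKO female regions (x axis, levels over the negative probe, log scale). Filled points are the 4 BMM-cKO regions by colour, open squares beneath them the 4 WT regions, and the dotted line marks the negative probe. Ttr reaches 361 times in BMM-cKO region 3, and Mbp, Gad2 and Npcd are high in BMM-cKO regions 1, 2 and 4.

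The title of the series asks about the sexes, and the question was put as an interaction: the difference between BMM-cKO and WT in females minus the same difference in males. It was called for 4561 of 9981 targets (45.7%), 2143 above and 2418 below 0. Females were on scan 3 and males on scan 2, so the slide and the sex are confounded and cannot be told apart. In males alone, 53.6% of targets were called between BMM-cKO and WT. Of the 1194 receptor and keratin-associated probes, 29.9% had a called interaction, close to the 33.7% of all 19962 targets in the same fit, and their middle 95% lay between -0.85 and 0.51. The values of single genes are read beside these shares.

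The 12 largest falls and 12 largest rises were chosen on the female difference, which is the first term of the interaction, so that all 24 had a called interaction of the same sign (45.7% over all tested targets) follows in part from the choice. For Penk it was -1.80 ± 0.23 (adjusted p = 2.77e-06), with levels of 2.56 ± 0.131 in BMM-cKO and 2.32 ± 0.178 in WT males (SD, n = 4 each). Crym (-1.35 ± 0.16, adjusted p = 1.64e-06), Arpp21 (-1.50 ± 0.30, 0.000244) and Pdyn (-1.12 ± 0.15, 3.89e-06) had interactions that lay beyond the range of the receptor probes, and Pdyn rose in males (0.50, adjusted p = 0.00028). In contrast, 4 of the 12 falls were also called lower in BMM-cKO than in WT in the male comparison: Gng7 (-0.44, adjusted p = 0.0231), Phactr1 (-0.52, 0.00155), Gnal (-0.49, 0.000204) and Dgkb (-0.24, 0.008). The interactions of Adcy5 (-0.82 ± 0.20) and Tac1 (-0.79 ± 0.16) were called and lay within the range of the receptor probes. For Drd1 (-0.11, adjusted p = 0.528) and Gad2 (-0.35, 0.447) the interaction was not called. Among the rises, Gnas had an interaction of 2.46 ± 0.42 (adjusted p = 5.62e-05), Pgrmc1 of 1.66 ± 0.21 (2.34e-06) and Timp2 of 1.57 ± 0.19 (1.4e-06), and 8 of the 12 fell in the male comparison. Aif1 had an interaction of -1.14 ± 0.14 (adjusted p = 1.65e-06), and rose by 0.90 in the male comparison (7.17e-08). Lyn had none (-0.26 ± 0.12, adjusted p = 0.0749).

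By size alone the interaction was led in the upward direction by Ttr (3.29 ± 1.36, adjusted p = 0.0486), Ptgds (2.47 ± 0.62, 0.00224), Gnas, Npcd (2.11 ± 0.63, 0.00735) and the imprinted gene Ndn (1.77 ± 0.47, 0.00343). Ttr, Ptgds and Npcd take their female values from 1 or 2 BMM-cKO regions. Downward it was led by Penk, Arpp21, Pmch (-1.42 ± 0.34, adjusted p = 0.00124), Crym and Hikeshi (-1.21 ± 0.22, 0.000104). Pmch, a peptide precursor of lateral hypothalamic neurons, was below the negative probe in all 8 female regions, and averaged 2.70 ± 1.31 times in BMM-cKO and 0.891 ± 0.0603 times in WT males (SD, n = 4 each).

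The knockouts were set against each other directly, since their comparisons with WT females share the WT regions. BMM-cKO and MG-cKO females differed in 1453 of 9981 targets (14.6%), 353 higher and 1100 lower in BMM-cKO. Arpp21 was lower in BMM-cKO than in MG-cKO females (log2 -1.27, adjusted p = 5.71e-05) and so was Phactr1 (-1.15, 1.71e-07). The other 10 of the largest falls were not called between the knockouts, Penk with a difference of 0.07 ± 0.16 (adjusted p = 0.815). Timp2 (0.86, adjusted p = 2.03e-05), Zic1 (1.03, 7.65e-06) and Pgrmc1 (0.45, 0.0351) were higher in BMM-cKO than in MG-cKO females, and Nrn1 was lower (-0.61, 0.016). The cortical genes Nrgn (log2 -2.35, adjusted p = 1.1e-08) and Slc17a7 (-1.96, 1.18e-10) were also lower in BMM-cKO than in MG-cKO females. Against the shared WT regions, where 29.8% of targets were called for MG-cKO, Penk had -1.64 in BMM-cKO and -1.71 in MG-cKO females, Gnas 1.62 and 1.56, and Phactr1 -1.17 and -0.02. Of the 12 largest falls, 10 were also called for MG-cKO against WT females, and all 12 had the same sign. Of the 12 largest rises, 8 were called and 10 had the same sign. Changes that both knockouts share cannot be told apart from a property of these WT regions.

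**Figure D5:**
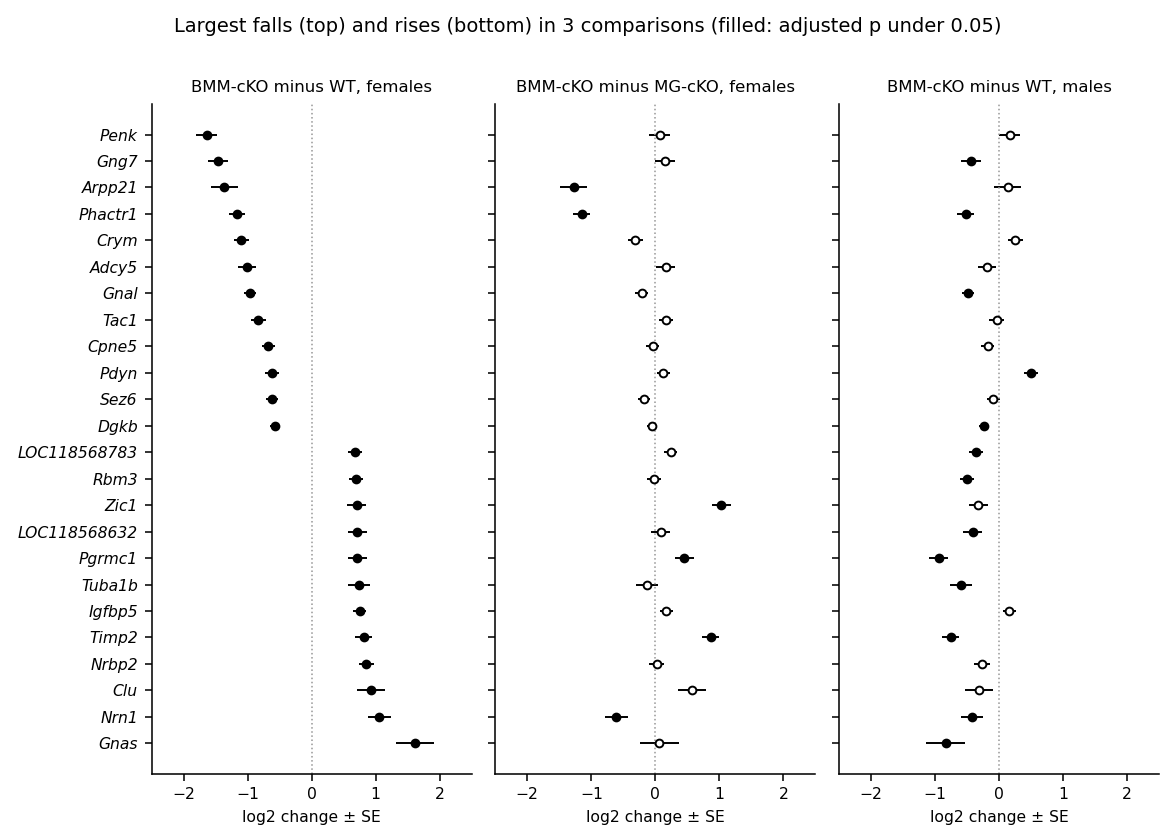
Log2 change ± SE (x axis) of the 12 largest falls and 12 largest rises of BMM-cKO against WT females in 3 comparisons: BMM-cKO minus WT females, BMM-cKO minus MG-cKO females and BMM-cKO minus WT males. Filled points passed adjusted p under 0.05. Arpp21 and Phactr1 are lower than in MG-cKO females, while Penk is not called there or in males.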

How the data were processed

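Per the labels' protocols, regions of stained frozen sections were read as barcode tags. The authors deposited signal values, 1 row per target and 1 column per region. At least 99.985% of the signal values of a region were within 0.01 of a whole number of tags times 1 factor, and the geometric mean was equal within a group and differed between groups (166.7 in BMM-cKO and 105.9 in WT females). The counting software and the build are not given in the sources used here. The 5 tables of pairs repeat the full table, and 12 columns named only by genotype were not used.

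From these values, log2(value + 1) was taken, each region was centred on its median over the tested targets, and limma 3.58.1 (lmFit, then eBayes with its trend option, R 4.3.3) was fitted over all 24 regions with 1 coefficient for each of 6 groups. The filter kept targets whose mean, after division by each region's geometric mean, was above the median target. Replicates are regions, numbered in deposition order.

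Tag counts at the median target carry a counting error of 5.68% to 10.6% in these 8 regions. These tag numbers are recovered from scaled values, did not meet the stricter criterion set for a count test, and serve only to describe depth. The errors cover counting only.

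Named genes were, per comparison, the 12 largest rises and falls that were called, did not overlap and reached 1.5 times the negative probe; per list, up to 4 called members and the first 2; Lyn, Aif1 and Tmem119; the 5 most variable per group; and the 5 largest interactions each way. Further list members are named as examples, after their values were seen. The comparison, the 31 lists and the tests were chosen with earlier results of these data known. The alternatives were other scales, filters, a pseudocount of 10, fewer groups in the fit, subtraction of the negative probe with a floor of 0.1 times it, and leaving out regions. Promoters come from RefSeq, GRCm38.p6: of the 16 called striatal genes, 11 matched, 6 with 1 entry and 5 with several. The values of a few genes are not reported here.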

Additional observations from a re-analysis of the deposited data

Results flagged for a closer look

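Among 190 groups of 4 regions examined, 14 had a region far from the other 3. Chance alone gives about 1 in 20 for targets chosen without regard to their spread. That rate does not apply here, since some targets, among them Ttr and Enpp2, were named for their large spread over these same regions. Ttr also counts both as a target and as the highest level of its region. In BMM-cKO females, region 3 stood high in Ttr (361 times the negative probe), which was also the highest level of any target in that region, and in Enpp2 (104), Clu (11.7), Ppp1r1b (9.24) and Gpx4 (4.5). Region 1 stood high in Mbp (4.49) and Hba-a1 (2.36), region 2 in Gad2 (3.15) and Slc32a1 (2.72), and region 4 in Timp2 (3.70). In WT females, Pmch was low in region 3 (0.571), S100a8 low in region 2 (0.688) and Hba-a1 high in region 2 (0.714), all below the negative probe.

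The difference between BMM-cKO and WT was itself different in females and males for 4561 targets by the interaction term, with sex and slide inseparable. Among the largest falls the interaction log2 values were -1.80 for Penk, -1.50 for Arpp21, -1.35 for Crym, -1.12 for Pdyn, -1.02 for Gng7, -0.82 for Adcy5, -0.79 for Tac1, -0.65 for Phactr1, -0.53 for Sez6, -0.50 for Cpne5, -0.48 for Gnal and -0.33 for Dgkb. Among the largest rises they were 2.46 for Gnas, 1.66 for Pgrmc1, 1.57 for Timp2, 1.48 for Nrn1, 1.34 for Tuba1b, 1.24 for Clu, 1.19 for Rbm3, 1.13 for LOC118568632, 1.12 for Nrbp2, 1.03 for LOC118568783, 1.02 for Zic1 and 0.59 for Igfbp5.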

How the results depend on the processing

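The counts of called targets depended on the scale and on the regions in the fit. For BMM-cKO against WT females, the 135 higher and 99 lower targets became 224 and 26 with the negative probe as scale, 86 and 64 without the filter, 17 and 18 with the 3 female groups alone, 4 and 7 with the 8 regions alone, and 9910 and 7 on the deposited scale. Lower targets were 62 with the negative probe subtracted and 149 with quantile normalization. Leaving out each region in turn gave 31 to 233 higher and 29 to 129 lower targets, 10 to 15 lower striatal genes and 0 to 2 lower homeostatic microglia genes. The lower striatal genes were 12 with the negative probe as scale, 10 with it subtracted, 9 among targets at 1.5 times it, 9 with the 3 female groups, 3 with the 8 regions alone and 5 on the deposited scale. The lower microglia genes were 0 with the negative probe as scale, with the 3 female groups, with the 8 regions alone and on the deposited scale, 1 without the filter and 3 with quantile normalization. The cause was not tested.

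The 4561 interaction calls became 1527 of 2362 targets with the negative probe subtracted, 1466 among targets at 1.5 times it and 8970 as deposited, and 4068 to 4670 with regions left out. The 1453 calls between the knockouts became 476, 888 and 7829 in these settings, 611 with the groups alone, 911 with quantile normalization, and 1020 to 1954 with regions left out. The percentage of targets over 2 times background differed by 1.39 percentage points, and the spread of the receptor probes by -0.01 on the log2 scale.

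On the deposited scale, which adds 0.64 to the median target, these log2 changes turned positive: Pdyn 0.019, Sez6 0.020, Dgkb 0.067, Cplx2 0.021, Rbfox3 0.50, Junb 0.51, Slc1a2 0.42, Slc1a3 0.45, C1qb 0.27, Cx3cr1 0.33, Aif1 0.40, Trem2 0.49, S100a9 0.56, Cd3e 0.63, Pecam1 0.52, Col6a1 0.12, Lyn 0.56, C1qa 0.36, Casp1 0.62 and Rplp1 0.46. Penk, Gng7, Phactr1, Crym, Gnal and LOC118568783 were called under every alternative in which they were tested. The fit of targets at 1.5 times the negative probe and the fit with it subtracted tested only 2362 targets, so low targets were left out there.

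Planned count-model alternatives were not run: the tag numbers were recovered from scaled values and did not meet the stricter criterion set for using them as counts. No paired analysis was possible because the labels give the groups no shared replicate numbers. Levels near the negative probe limit what the myeloid and inflammatory lists can show, and 4 regions per group limit the precision.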
